A study of Mus musculus with 24 samples.

Results

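The control caudal end of mouse embryos was compared between embryonic day 9.0 (E9.0) and embryonic day 8.5 (E8.5), over all probes of an Illumina bead array. The members were 8 of the 24 arrays of the series, chosen by their stage and genotype labels: 4 of E9.0 controls and 4 of E8.5 controls. The tissue was the unsegmented caudal end, the tissue behind the last formed somite, from embryos of strain C57Bl/6. The control embryos are titled wt, but their genotype label reads Srf(+/-), so they are called controls here and not wild type; Srf encodes serum response factor. Their parents were labelled SRF(flex1/+); T:cre/T:cre on either side, so the controls of both stages also carry Cre driven by T, a T-box gene of the primitive streak and of the mesoderm it forms. The remaining 16 arrays held E8.75 controls, which were not used, and knockouts labelled Srf(-/-) from the same cross at the 3 stages. The E9.0 and E8.5 knockouts, 4 arrays of each, are used at the end of the text. The labels do not say whether replicates are separate embryos, pools or litters, and they name no chip or run. P-values therefore rest on the spread between these arrays alone, part or all of which may be technical.

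As background, the caudal end holds the progenitors that lengthen the body axis. Their descendants become presomitic mesoderm and neural tube, and Wnt, FGF and Cdx genes keep the progenitors going. Hox genes are switched on in their order along each cluster, so that more posterior paralogues come on as the trunk gives way to the tail. Retinoic acid from the somites and its breakdown in the tail bud oppose each other, and Notch signalling drives the segmentation clock.

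The arrays had a median intensity of 37.8 to 38.9 at E9.0 and of 38.3 to 45.9 at E8.5. They detected 13183 to 13625 of 25697 probes at E9.0 and 12706 to 13685 at E8.5, where detection means a p-value under 0.05 against the negative controls of the array. Markers of the tissue were present at both stages, with Cdx2, Tbx6 and Wnt3a detected on all 8 arrays, and T was not analysed here because no probe carries its symbol. The heart markers Myl7 and Nkx2-5 were not above background on any E9.0 array, and at E8.5 Nkx2-5 was detected on 2 arrays. Of 11 listed heart muscle genes 3 were detected on at least 4 of the 8 arrays: Actc1, Myl2 and Tnnc1. Among the rest, Myl7, Myh7, Nppa and Tbx5 were detected on no array. Myh6, Nkx2-5, Tnni1 and Ttn were detected on at most 2 arrays of a stage. Actc1 changed by 1.04 and Tnnc1 by -1.46 (log2, E9.0 minus E8.5), and whether the 3 detected genes mark heart muscle was not tested. The E8.5 array of replicate 3 stood apart: its score on the first principal component, which held 69.6% of the variance, was 15.1, while the other E8.5 arrays lay at 27.0 to 29.7 and the E9.0 arrays at -26.7 to -22.5. That array also had the highest median intensity of the 8 (45.9) and the fewest detected probes (12706). It carried the strongest erythroid signal of its group, and erythroid values are given with and without it. What set it apart was not tested.

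All levels below are log2 intensities after background correction and quantile normalization of the 8 arrays, and a change is the E9.0 mean minus the E8.5 mean on that scale. A gene was called when its Benjamini-Hochberg adjusted p, over all 9954 features tested with limma, was under 0.05. Of these features 4030 (40.5%) were called, 1861 (18.7%) higher at E9.0 and 2169 (21.8%) lower. At 2-fold or more, 213 called features (2.14%) were higher and 201 (2.02%) were lower. For 3696 features (37.1%) the 4 E9.0 arrays and the 4 E8.5 arrays did not overlap. The median change of all features was -0.02. Scaling each array to a common median in place of quantile normalization moved this median to -0.15, and the share of calls that were higher was then 26.9%, against 46.2% in the main fit. In bulk tissue, fewer cells of a type and less RNA per cell cannot be told apart.

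**Figure D1:**
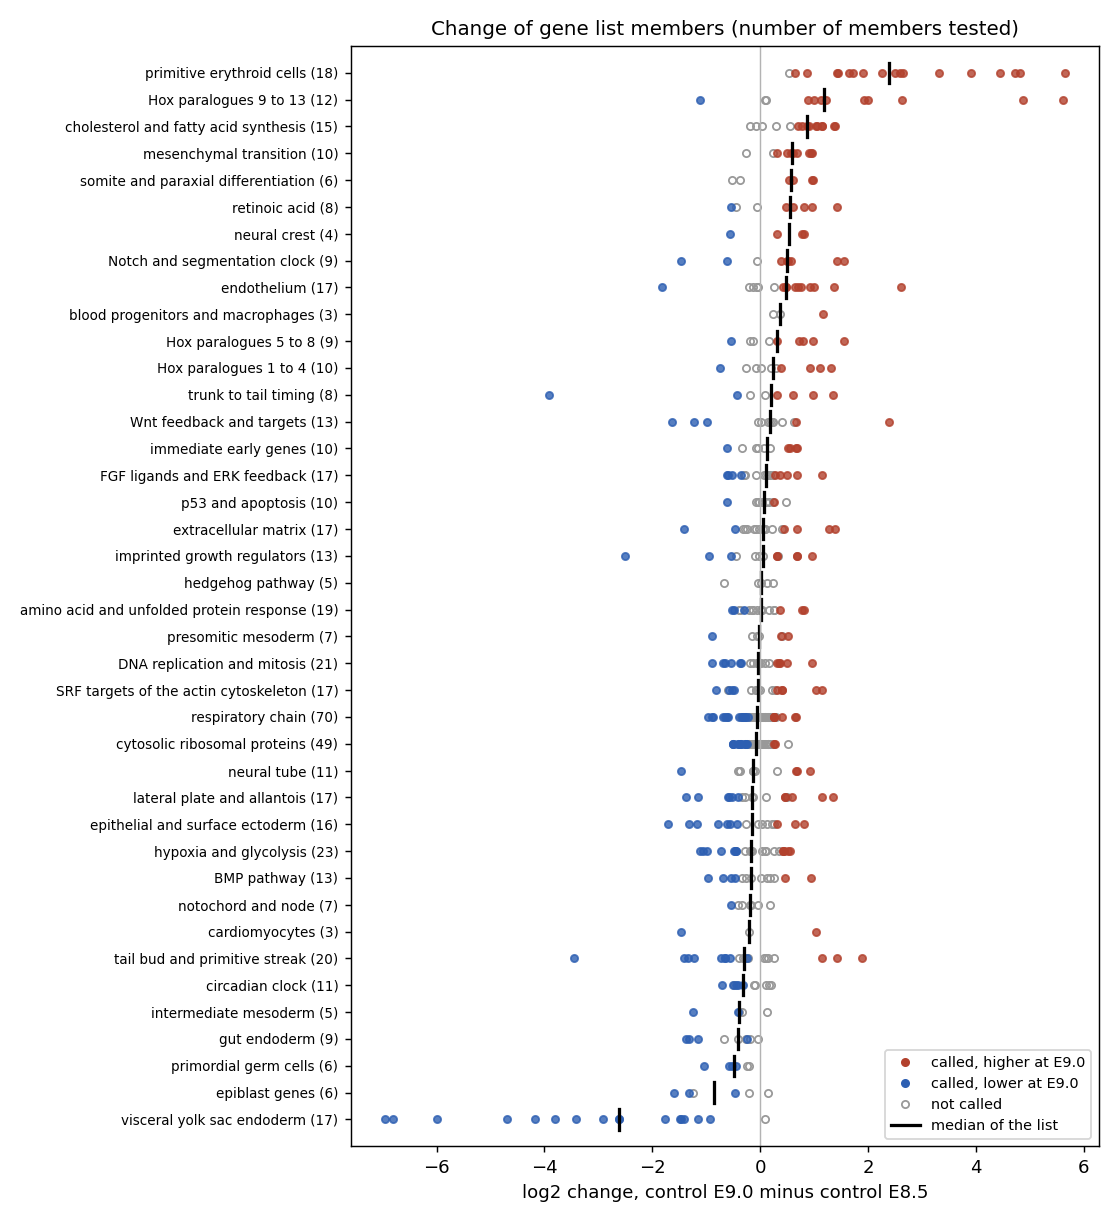
Log2 change of each tested member (points) of 40 gene lists between E9.0 and E8.5 control caudal ends, with the number of members tested in brackets and the list's median as a black bar. Red points were called higher at E9.0, blue points lower, and open points were not called. The erythroid list (median 2.38) and the yolk sac endoderm list (median -2.62) lie at the ends, and the posterior Hox list follows at 1.17.

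Hox genes moved mostly upwards, and most of all in paralogue group 10. Of the 31 Hox genes tested, 18 were called higher at E9.0, 3 lower, and 10 were not called, beside 18.7% higher and 21.8% lower over all features. In paralogue groups 9 to 13, 9 of 12 were higher and 1 was lower, with a median change of 1.17. The median was 1.11 when genes without signal at E8.5 are set at their bound. Of the 9, 3 (Hoxa10, Hoxc11 and Hoxd12) were detected at E9.0 only. They passed the filter through E9.0 alone, so they could count as rises but not as falls. Without them the median was 1.00. In groups 5 to 8, 5 of 9 were higher and 1 lower (median 0.31). Hoxa6 in these groups was also detected at E9.0 only, and without it the median was 0.24. In groups 1 to 4, 4 of 10 were higher and 1 lower (median 0.25).

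Hoxc10, a posterior Hox gene of the level of the hindlimb, had 11.24, 11.26, 11.18 and 11.37 on the E9.0 arrays, against 5.60, 5.01, 6.33 and 5.67 on the E8.5 arrays. Every E9.0 array lay far above every E8.5 array. The difference was a 48.8-fold rise (log2 change 5.61 ± 0.21, SE; adjusted p = 1.74e-07, n = 4 each), and a dimmer probe of the gene gave 4.81. Hoxd10, its paralogue in the Hoxd cluster, read 11.82, 10.74, 10.95 and 11.19 at E9.0, against 6.12, 5.75, 6.80 and 6.53 at E8.5. These groups did not overlap either, and the rise was 29.5-fold (4.88 ± 0.25, adjusted p = 7.62e-07). Hoxa10 was detected on all 4 E9.0 arrays and on no E8.5 array, so its rise is given only as a bound of at least 3.45-fold (adjusted p = 2.47e-06). All 3 measured paralogues of group 10 thus rose.

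Beyond group 10, Hoxd13, the last gene of its cluster and a gene of the genital and hindgut end of the axis, had 7.55, 6.52, 7.23 and 7.37 at E9.0, against 4.45, 4.38, 4.74 and 4.58 at E8.5. The groups were apart by more than 1 unit, with a rise of 2.63 ± 0.19 (adjusted p = 5.49e-06). Hoxd12 and Hoxc11 were not above background on any E8.5 array, and rose at least 3.36-fold and at least 1.89-fold. Within the E9.0 group Hoxd12 was uneven, at 8.24, 4.56, 5.76 and 6.31, with replicate 1 the highest. Hoxa13 (0.11, adjusted p = 0.595) and Hoxc13 (0.09, adjusted p = 0.451) were not called, with overlapping stages for either gene.

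Counts by cluster were as follows, with no test between clusters. Of 9 Hoxb genes 2 were higher and 2 lower, with a median change of 0.01. The Hoxa cluster had 6 of 9 higher and none lower (median 0.73), the Hoxc cluster 4 of 5 higher and none lower (1.12), and the Hoxd cluster 6 of 8 higher and 1 lower (1.11). Hoxb9 had 6.17, 6.14, 6.16 and 6.31 at E9.0, against 7.29, 7.10, 7.55 and 7.34 at E8.5, without overlap. It fell by 1.12 (SE 0.10, adjusted p = 2.88e-05), while Hoxa9, Hoxc9 and Hoxd9 rose by 1.00, 1.23 and 0.90 (adjusted p from 0.000177 to 0.000472). The other falls were Hoxb6 (-0.54) and Hoxd1 (-0.74).

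Among anterior and middle Hox genes the largest rises were Hoxa5 (1.56), Hoxd3 (1.32) and Hoxb3 (1.10), all with groups that did not overlap. Dimmer probes of Hoxb3 gave 0.33 and 0.49, so its size depends on the probe. Hoxa5 stood at 10.70, 9.83, 10.14 and 10.21 at E9.0, against 8.40, 8.89, 8.73 and 8.63 at E8.5. Hoxa2 (0.39) and Hoxb7 (0.31) were called, but their calls were lost in 6 and 3 of the 8 fits that left out 1 array, with adjusted p up to 0.102 and 0.0648. Under median scaling the medians of the 3 Hox lists stayed positive, at 1.02, 0.08 and 0.09 from posterior to anterior, beside -0.15 for all features.

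**Figure D2:**
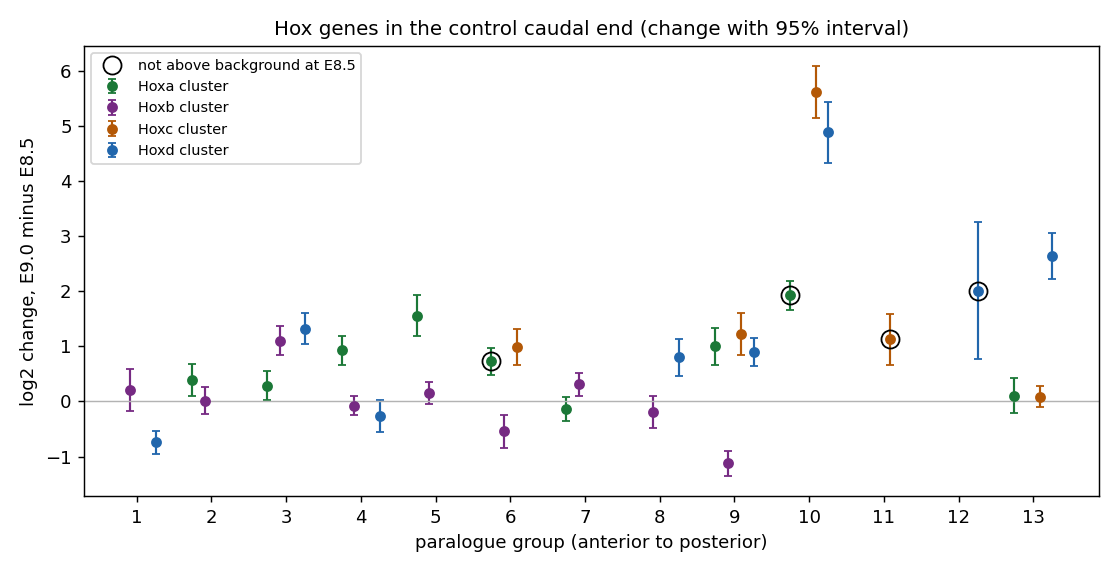
Log2 change (E9.0 minus E8.5, vertical axis) of each tested Hox gene in control caudal ends, by paralogue group from anterior to posterior and coloured by cluster, with 95% intervals from the limma fit of 4 arrays in each group. Ringed genes were not above background at E8.5. Hoxc10 and Hoxd10 lie at 5.61 and 4.88, and Hoxb9 is the lowest at -1.12.

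Genes tied to the passage between trunk and tail changed in both directions. Of 8 tested members of that list 4 were higher and 2 lower at E9.0, beside 18.7% and 21.8% over all features. Nr6a1, a nuclear receptor needed for trunk formation in the mouse and a repressor of Pou5f1, had 6.04, 7.21, 7.04 and 6.50 at E9.0, against 10.56, 10.89, 10.32 and 10.72 at E8.5. The arrays of the 2 stages were separated by more than 3 units. Nr6a1 fell by 3.92 (SE 0.23), which is 15.1-fold (adjusted p = 1.54e-06). Lin28a, an RNA-binding protein that blocks let-7 processing, fell by 0.43 (adjusted p = 0.0068), and its dimmer probe by 1.05. Isl1, a LIM homeobox gene of the hindlimb field and cloacal region, had 9.95, 10.49, 10.70 and 10.60 at E9.0, against 8.997, 8.65, 9.43 and 9.22 at E8.5, and rose by 1.36 ± 0.19 (adjusted p = 0.000304). Hmga2, a chromatin protein and a let-7 target, rose by 0.99 (adjusted p = 0.000353). Tgfbr1, a type I receptor through which Gdf11 can act, rose by only 0.31 (adjusted p = 0.0133), a call lost under median scaling. Gdf11 and Lin28b were not analysed here.

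Tail bud and primitive streak genes fell more often than they rose, with the exceptions of a few ligands and a retinoic acid enzyme. Of 20 tested members 3 were higher and 9 lower (median change -0.30), beside 18.7% and 21.8% over all features. Without E8.5 replicate 3 there were 3 higher and 12 lower. The lower count was 8 without E9.0 replicate 3 or 4 or E8.5 replicate 1, 2 or 4, and in the fit of 24 arrays. Cdx1, a caudal homeobox gene, had 5.72, 6.16, 5.66 and 5.79 at E9.0, against 9.72, 9.77, 8.31 and 9.32 at E8.5. The E8.5 value of replicate 3 was the lowest of its group but still above all E9.0 arrays. Cdx1 fell by 3.45 (SE 0.27), a 10.9-fold fall (adjusted p = 1.06e-05), and a second probe gave -3.36. Cdx4 fell by 0.73 (adjusted p = 0.00062). Cdx2 stood at 11.65, 11.79, 11.49 and 11.62 at E9.0, against 11.93, 11.81, 11.86 and 11.89 at E8.5. Its change of -0.24 passed the threshold (adjusted p = 0.0479), but 7 of the 8 fits that left out 1 array lost the call, with adjusted p up to 0.138.

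Wnt8a, a ligand of the early primitive streak, fell by 1.42 (adjusted p = 0.000662) and was detected on 3 of 4 E9.0 arrays. Wnt5a, a ligand of non-canonical Wnt signalling needed for outgrowth of the tail, had 11.73, 11.93, 11.34 and 11.50 at E9.0, against 10.07, 9.70, 9.63 and 9.56 at E8.5. All E9.0 arrays exceeded all E8.5 arrays, and the rise was 3.69-fold (1.88 ± 0.14, adjusted p = 8.90e-06). Fgf17, an FGF ligand of the tail bud, had 11.62, 11.15, 11.06 and 11.31 at E9.0, against 10.13, 10.18, 10.20 and 10.05 at E8.5, a rise of 1.15 ± 0.12 (adjusted p = 6.22e-05) with no overlap. Wnt3a, the ligand that maintains the axial progenitors, did not pass the test: it had 10.89, 10.58, 10.48 and 10.58 at E9.0, against 10.20, 10.84, 10.24 and 10.24 at E8.5, with E8.5 replicate 2 as high as the E9.0 arrays (change 0.25, adjusted p = 0.199). Tbx6, the T-box gene of presomitic mesoderm, was not called by the brighter probe (-0.15, adjusted p = 0.534), whereas a dimmer probe gave 0.97 (adjusted p = 0.000343), so its direction rests on the probe.

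**Figure D3:**
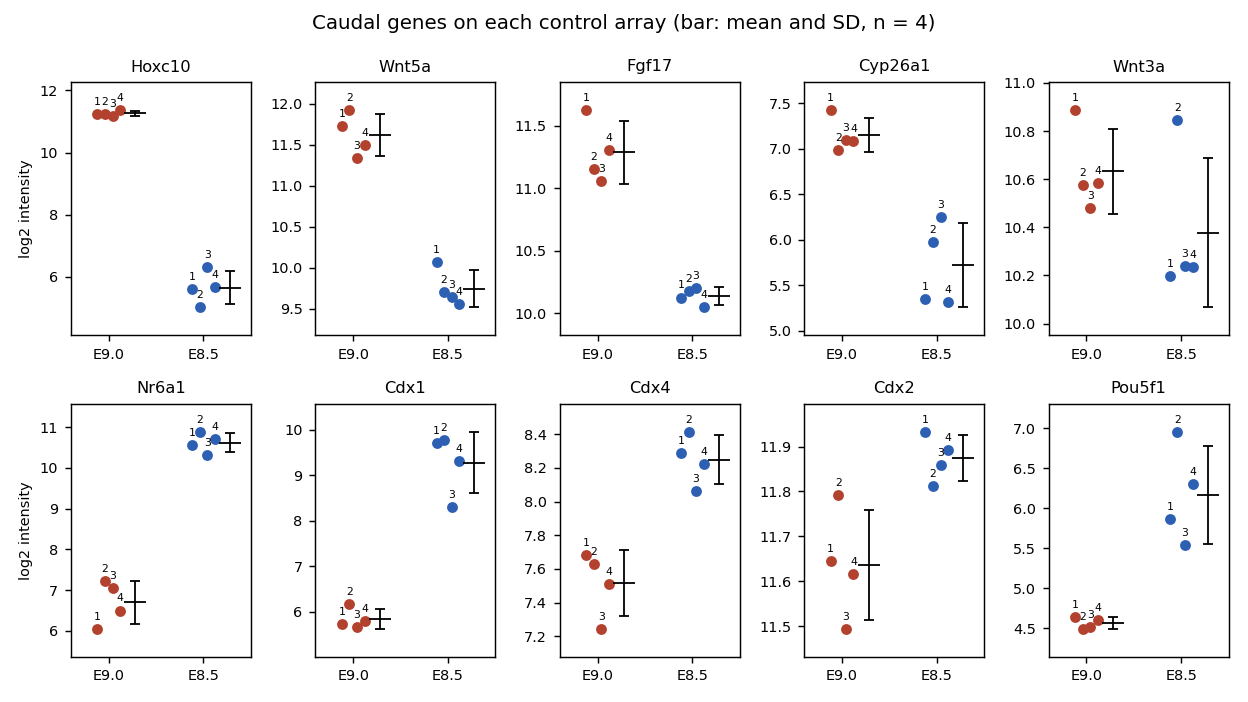
Log2 intensity of 10 caudal genes on each control array, with E9.0 in red left of E8.5 in blue; small digits are replicate numbers, and the bar gives the mean and SD of 4 arrays. Hoxc10, Wnt5a, Fgf17 and Cyp26a1 lie higher at E9.0 without overlap, Nr6a1, Cdx1, Cdx4, Cdx2 and Pou5f1 lower, and the Wnt3a groups overlap.

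Epiblast genes also lay lower. Of 6 tested members 3 fell and none rose, beside 21.8% lower over all features. The median change was -0.85, but -0.35 in the fit of 24 arrays and -0.54 without E8.5 replicate 2. Pou5f1, which encodes the pluripotency factor Oct4, had 4.64, 4.49, 4.52 and 4.61 at E9.0, against 5.86, 6.96, 5.54 and 6.30 at E8.5. The E9.0 arrays were close to the floor of the scale and below every E8.5 array, and the fall was 3.04-fold (-1.60 ± 0.24, adjusted p = 0.000455), with -1.84 for a second probe. L1td1 fell by 1.32 and the DNA methyltransferase gene Dnmt3b by 0.47 (adjusted p = 8.65e-05 and 0.0045). Of 6 tested genes listed for primordial germ cells 4 fell and none rose, beside the same 21.8%. Among the falls were Ifitm1 (-1.05) and Tfap2c (-0.57), a transcription factor of germ cells and surface ectoderm. Of the listed germ cell genes below the filter, Dppa3 was detected on no E9.0 array and on 3 of 4 E8.5 arrays. Nanos3 and Prdm1 went the other way, each with signal on 1 E9.0 array and on no E8.5 array. Dazl and Prdm14 were detected on none of the 8.

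Genes of the visceral yolk sac endoderm showed the largest falls of all lists. This epithelium surrounds the embryo outside the body and secretes lipoproteins and carrier proteins, and it is not a part of the caudal end itself. Of 17 tested members 16 were lower at E9.0 and none was higher, beside 21.8% lower over all features, and 15 fell at least 2-fold. The median change was -2.62, or -2.37 with bounds for the 6 members detected on E8.5 arrays only. These 6, Ttr among them, passed the filter through E8.5 alone, so they could count as falls but not as rises. Without them the median was -2.92. The mean level of the list was 4.69 to 4.83 on the E9.0 arrays and 7.04 to 8.46 on the E8.5 arrays, so each stage kept its own range.

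Ttr, the carrier of thyroid hormone and retinol-binding protein, was not above background on any E9.0 array, against 11.98, 10.20, 10.23 and 11.90 on the E8.5 arrays, a fall of at least 98.8-fold (adjusted p = 1.38e-06). Apoa1, the main protein of high-density lipoprotein, had 4.68, 4.60, 4.76 and 4.78 at E9.0, against 11.60, 9.68, 10.11 and 11.38 at E8.5. Replicates 1 and 4 of E8.5 were the higher ones, and the E9.0 arrays lay close to each other. The fall was 63.3-fold (-5.98 ± 0.35, adjusted p = 1.64e-06). Spink1, a secreted inhibitor of serine proteases, had 4.28, 5.86, 5.50 and 4.55 at E9.0, against 12.47, 11.86, 11.32 and 12.36 at E8.5. It was detected on 3 of 4 E9.0 arrays, and the fitted fall was 124-fold (adjusted p = 5.65e-07), set against E9.0 signals near background. Amn, which partners cubilin in protein uptake, fell by 4.69 and Apom by 4.17, and Afp, the fetal albumin-like protein, was detected on no E9.0 array (at least 2.24-fold lower). Lrp2, the endocytic receptor megalin, was the exception with a change of 0.09 (adjusted p = 0.524). Of the further listed genes, Alb and Fgb were below the filter at both stages.

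Genes outside the list also led the falls: Slc13a4, a sulfate transporter (-4.81), Clic6 (-3.15), Apoe (-3.10) and the scaffold gene Pdzk1 (-3.01), without overlap and with adjusted p of 6.41e-05 or lower.

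Primitive erythroid genes showed the reverse. These genes encode embryonic globins and the heme and membrane proteins of the first red cells, which form in the yolk sac and enter the embryo once the circulation begins. Of 18 tested members 17 were higher at E9.0 and none was lower, beside 18.7% higher over all features, and 15 rose at least 2-fold (median 2.38). The mean level of the list was 8.31, 8.31, 9.51 and 9.62 on the E9.0 arrays, against 5.75, 5.24, 8.28 and 6.03 on the E8.5 arrays. E8.5 replicate 3 thus lay just below the lowest E9.0 array and more than 2 units above the other E8.5 arrays. Without it 18 of 18 members were higher and the median was 2.87. Without E9.0 replicate 3 or 4, or E8.5 replicate 2 or 4, 15 were higher, with medians from 2.04 to 2.26. The groups did not overlap for 8 of the 18, beside 37.1% of all features.

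Hbb-y, the embryonic beta-like globin, had 14.01, 13.87, 14.28 and 14.37 at E9.0, against 7.24, 5.59, 13.08 and 8.05 at E8.5. The groups did not overlap, but replicate 3 of E8.5 came within 1 unit of the lowest E9.0 array. The change was 5.64 ± 1.19 (adjusted p = 0.00359). Leaving out 1 array gave 4.68 to 7.17, the highest being without that array. Hba-x, the embryonic alpha-like globin, changed by 4.45 ± 1.01 (adjusted p = 0.00542), or 5.66 without that array, and the adult alpha globin Hba-a1 by 4.82 ± 1.03 (adjusted p = 0.00383), or 6.10. Alas2, the erythroid enzyme that starts heme synthesis, had 8.51, 8.46, 10.05 and 10.67 at E9.0, against 4.83, 4.35, 7.81 and 5.10 at E8.5. Again all E9.0 arrays were above all E8.5 arrays, with 3.91 ± 0.70 (adjusted p = 0.00148), or 4.67 without replicate 3. Kel, a membrane endopeptidase and blood group antigen, rose by 2.50, Blvrb, a reductase of heme breakdown products, by 2.65, and Slc4a1, the band 3 anion exchanger, by 4.73 with 1 overlapping pair of arrays. Without E8.5 replicate 3 these changes were 2.86 for Kel, 3.22 for Blvrb and 5.98 for Slc4a1. Gata1, the erythroid master regulator, was detected on all E9.0 arrays and no E8.5 array (at least 1.39-fold higher, adjusted p = 0.00828). Gata1 could thus count as a rise but not as a fall.

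Because these members moved together, the promoters of 4 of them are shown, with matches to AGATAA or TGATAA on either strand, the letters read by GATA factors, in capitals. Each is the 200 bases before the annotated start, 5′ to 3′ in the direction of the gene, from RefSeq on GRCm38.p6. They lie at chrX:150547217-150547416 on the plus strand for Alas2, chr6:41704326-41704525 on the minus strand for Kel, chr7:103853208-103853407 on the minus strand for Hbb-y and chr11:32276400-32276599 on the plus strand for Hba-x.
Alas2: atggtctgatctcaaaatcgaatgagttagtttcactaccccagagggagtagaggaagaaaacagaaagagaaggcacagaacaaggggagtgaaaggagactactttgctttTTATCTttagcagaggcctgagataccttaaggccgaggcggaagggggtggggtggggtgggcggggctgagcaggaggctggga
Kel: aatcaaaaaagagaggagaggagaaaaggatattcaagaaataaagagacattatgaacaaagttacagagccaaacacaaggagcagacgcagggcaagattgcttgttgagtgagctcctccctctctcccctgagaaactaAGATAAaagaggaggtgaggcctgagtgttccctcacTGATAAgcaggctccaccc
Hbb-y: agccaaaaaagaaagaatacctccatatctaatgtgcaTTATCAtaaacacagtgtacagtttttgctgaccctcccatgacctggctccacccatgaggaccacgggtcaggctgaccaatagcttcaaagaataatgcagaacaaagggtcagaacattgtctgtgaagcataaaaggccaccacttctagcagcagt
Hba-x: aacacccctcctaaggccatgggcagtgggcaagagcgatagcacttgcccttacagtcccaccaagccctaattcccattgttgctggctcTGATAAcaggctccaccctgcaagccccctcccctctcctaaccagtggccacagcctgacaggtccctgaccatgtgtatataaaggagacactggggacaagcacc
Of the 18 tested members 12 had a promoter in the table. Of these, 10 held at least 1 such match within 250 bases before a start, against 18.8% of all 27025 genes and 16.6% of all 32851 promoters. A match is a run of letters and not a shown binding site.

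**Figure D4:**
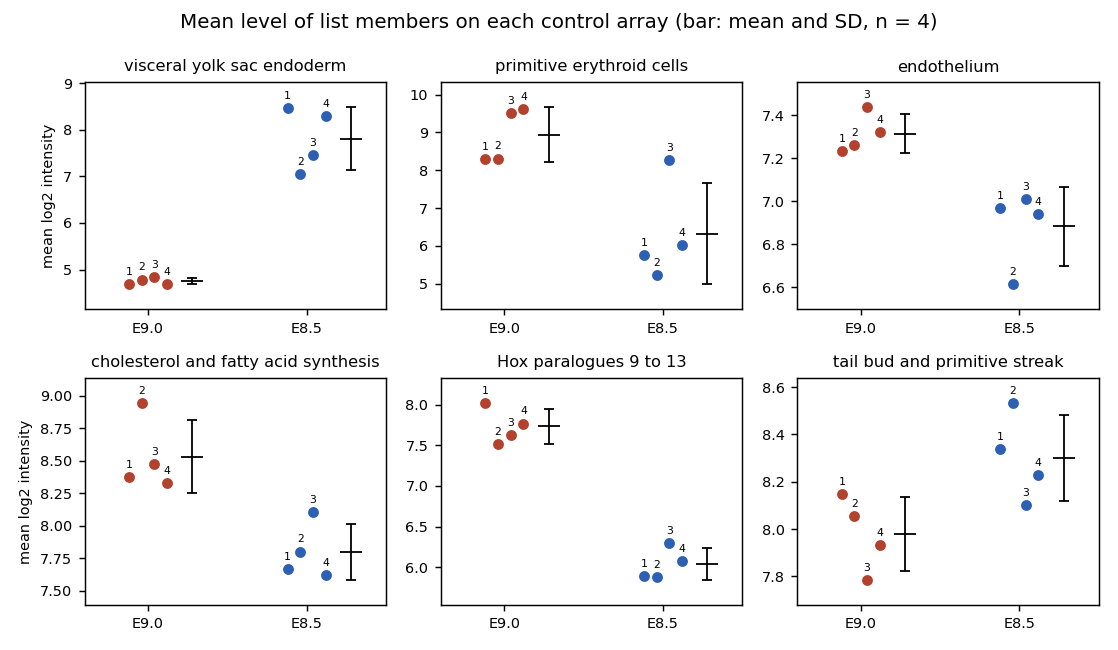
Mean log2 intensity of the tested members of 6 gene lists on each control array, with E9.0 (red) left of E8.5 (blue); small digits are replicate numbers, and bars give the mean and SD of 4 arrays. Yolk sac endoderm genes lie at 4.69 to 4.83 at E9.0, against 7.04 to 8.46 at E8.5, and in the erythroid panel E8.5 replicate 3 stands at 8.28.

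Endothelial genes rose in part. Of 17 tested members 10 were higher and 1 lower (median 0.48), beside 18.7% and 21.8% over all features. Kdr was below the filter, with signal on 1 array of each stage. Emcn, a mucin-like surface protein of veins and capillaries, had 8.90, 8.32, 8.81 and 8.84 at E9.0, against 6.18, 5.51, 6.72 and 6.04 at E8.5, a rise of 2.60 ± 0.22 (adjusted p = 1.59e-05) without overlap. Robo4 rose by 1.37, Plvap by 1.00, the junction protein gene Pecam1 by 0.92 and the cadherin gene Cdh5 by 0.71. The called fall was Etv2, the transcription factor that specifies blood and endothelial progenitors, with 6.80, 8.25, 7.85 and 7.27 at E9.0, against 9.25, 9.03, 9.65 and 9.50 at E8.5 (-1.82 ± 0.26, adjusted p = 0.000408). The mature vessel markers and the progenitor factor thus moved apart. Macrophage and blood progenitor genes were mostly undetected, and of 3 tested 1 was called, beside 40.5% of all features.

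In the Notch pathway, targets were called in both directions. Of 9 tested members 6 were higher and 2 lower, beside 18.7% and 21.8% over all features, and under median scaling 3 were higher. Nrarp, a target that dampens Notch signalling, had 10.42, 10.65, 10.78 and 10.99 at E9.0, against 9.19, 9.13, 9.33 and 8.98 at E8.5, and rose by 1.55 ± 0.13 (adjusted p = 1.21e-05). Hey2 and Hey1, transcriptional repressors downstream of Notch, rose by 1.43 and 0.58, and Hes7, the oscillating repressor of the segmentation clock, by 0.38 (adjusted p = 0.00838, not called under median scaling). Hes5, a Notch target of the neural tube, fell by 1.46 (adjusted p = 0.000299), and the receptor gene Notch1 by 0.62 (adjusted p = 0.00208). The calls of Hes1 (0.49) and Lfng (0.51) were lost in 6 and 5 of the 8 fits without 1 array, with adjusted p up to 0.131 and 0.109, which leaves 4 rises that held in each of those fits.

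Paraxial and neural genes showed smaller changes, and their counts stand beside 18.7% higher and 21.8% lower over all features. Of 7 presomitic mesoderm genes tested 2 were higher (1 without E9.0 replicate 4 or E8.5 replicate 2 or 4) and 1 lower. The fall was Mesp1, a transcription factor of early mesoderm that was detected on no E9.0 array (at least 1.62-fold lower). Its call was lost in the fits of 16 and of 24 arrays, with adjusted p up to 0.156. Somite genes were largely undetected: 11 of 17 genes on the array, Pax1, Myf5 and Uncx among them, failed the filter. Of the 6 tested 4 were higher, among them Twist1 (0.96) and Aldh1a2 (0.62), and 2 without E8.5 replicate 4. Of 11 neural genes 3 were higher, including the progenitor genes Sox2 (0.66, adjusted p = 0.00822) and Nes (0.92, adjusted p = 0.00311), and Hes5 was lower. In the notochord and node list 1 of 7 was called, Nog (-0.53), and Shh was not (-0.03, adjusted p = 0.878).

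Signalling lists were mixed. In the retinoic acid list 5 of 8 genes were higher and 1 lower (median 0.55), beside 18.7% and 21.8% over all features. Cyp26a1, the tail bud enzyme that breaks down retinoic acid, had 7.43, 6.99, 7.10 and 7.09 at E9.0, against 5.35, 5.97, 6.25 and 5.31 at E8.5, without overlap, and rose by 1.43 ± 0.20 (adjusted p = 0.000305). Aldh1a2, the enzyme that makes retinoic acid, rose by 0.62 (adjusted p = 0.00279). Its call was lost in the fits of 16 and of 24 arrays (adjusted p = 0.141 and 0.123), and a dimmer probe gave 0.18 (adjusted p = 0.295). Also higher were the receptor gene Rarg, by 0.81 (another probe gave -0.20, adjusted p = 0.226), and the binding protein gene Crabp2, by 0.96. Crabp1 fell by 0.54.

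Of 13 Wnt feedback genes and targets 2 were higher and 3 lower, near the 18.7% and 21.8% of all features. Nkd2, an inhibitor that binds Dishevelled, had 9.68, 8.24, 8.47 and 8.86 at E9.0, against 6.12, 6.39, 6.87 and 6.34 at E8.5, and rose by 2.38 ± 0.27 (adjusted p = 9.27e-05). Notum, an enzyme that inactivates Wnt ligands, went the other way, with 6.08, 6.37, 5.98 and 6.26 at E9.0, against 7.65, 7.97, 7.61 and 7.996 at E8.5 (-1.64 ± 0.12, adjusted p = 6.84e-06). Apcdd1, a membrane inhibitor of Wnt, rose by 0.67, and the R-spondin receptor gene Lgr5 fell by 0.99. These inhibitors of 1 pathway did not move together, and the sign of the list's median depended on the scaling (0.18 in the main fit and -0.04 under median scaling).

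Of 17 FGF genes 5 were higher and 4 lower, near the 18.7% and 21.8% of all features. The higher count was 3 without E9.0 replicate 4 or E8.5 replicate 2 or 4, the lower count 2 without E9.0 replicate 3 or 4 or E8.5 replicate 2, and median scaling gave 2 and 5. Fgf17 led the rises, and Etv4, an ETS factor that FGF signalling induces, fell by 0.61 (adjusted p = 0.00417). In the BMP pathway 2 of 13 were higher and 4 lower, beside 18.7% and 21.8% over all features. The ligand gene Bmp4 rose by 0.47 and the modulator Bmper by 0.95, whereas Msx1, a homeobox target of BMP, fell by 0.96 (adjusted p = 0.00113) and Id2 by 0.69. Smo, the hedgehog signal transducer, had a change of 0.01 (adjusted p = 0.927), while a dimmer probe gave 0.38 (adjusted p = 0.0083).

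Lateral plate genes were called in both directions and endoderm genes downwards. Of 17 lateral plate and allantois genes 5 were higher and 6 lower, beside 18.7% and 21.8% over all features. The lower count was 2 without E8.5 replicate 4 and 3 without E9.0 replicate 1 or in the fit of 24 arrays. Isl1 and Prrx1 (1.14), a homeobox gene of limb mesenchyme, rose, and Foxf1 (-1.15) and Gata6 (-1.37) fell. E9.0 replicate 1 was the lowest for these last 2, at 5.65 for Foxf1 and 5.64 for Gata6, beside 6.60 to 7.58 and 6.74 to 7.32 on the other E9.0 arrays. In the gut endoderm list 4 of 9 fell and none rose, beside 21.8% lower over all features. The count was 7 without E8.5 replicate 3, and 3 in 6 of the other 7 fits without 1 array. Foxa3 had 6.36, 6.16, 6.38 and 6.22 at E9.0, against 7.62, 7.88, 7.20 and 7.71 at E8.5, and fell by 1.32 (adjusted p = 5.33e-05), and Sox17, an endoderm factor, by 1.15 (adjusted p = 0.000313). The yolk sac level, of 4.69 to 4.83 at E9.0 and 7.04 to 8.46 at E8.5, was also lower at E9.0, and its part in the result was not tested.

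Epithelial genes fell more often than they rose, and mesenchymal genes rose. Of 16 epithelial and surface ectoderm genes 7 fell and 3 rose, beside 21.8% lower and 18.7% higher over all features. Of 10 genes of mesenchymal transition 8 rose and none fell (median 0.59). The count of mesenchymal rises was 6 to 7 in the fits without 1 array, and 4 under median scaling. Krt8, a keratin of simple epithelia, had 9.48, 10.06, 9.91 and 9.79 at E9.0, against 11.93, 11.30, 11.35 and 11.49 at E8.5, without overlap. It fell by 1.71 (SE 0.16, adjusted p = 2.78e-05), its partner keratin Krt18 by 1.31, the splicing regulator Esrp1 by 1.17 and E-cadherin (Cdh1) by 0.79. On the mesenchymal side Vim had 10.17, 9.54, 9.83 and 9.82 at E9.0, against 9.13, 8.46, 9.15 and 8.87 at E8.5, a rise of 0.94 ± 0.17 (adjusted p = 0.00135). Twist1 rose by 0.96, the integrin gene Itga5 by 0.91 and N-cadherin (Cdh2) by 0.68. Dimmer probes of Cdh2 gave 0.04, 0.20 and 0.47, and its call was lost in the fit of 24 arrays. Yolk sac endoderm is itself a keratin-rich epithelium, with the same list level of 4.69 to 4.83 at E9.0 and 7.04 to 8.46 at E8.5 beside these falls, and its part in them was not tested.

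In the extracellular matrix list 4 of 17 were higher and 2 lower, beside 18.7% and 21.8% over all features. Without E9.0 replicate 1, 4 were lower. Col2a1, the collagen of cartilage and notochord sheath, had 7.44, 7.26, 7.17 and 7.20 at E9.0, against 5.81, 5.94, 6.04 and 5.77 at E8.5, and rose by 1.38 ± 0.10 (adjusted p = 4.43e-06). The proteoglycan gene Vcan rose by 1.28 (adjusted p = 7.31e-05), and Lum, a small proteoglycan, fell by 1.40 with signal on 1 of 4 E9.0 arrays. Mfap4, a microfibril protein outside the list, was among the most separate genes of all, with 8.76, 8.49, 8.29 and 8.42 at E9.0, against 5.66, 5.49, 5.76 and 5.75 at E8.5 (2.82 ± 0.11, adjusted p = 1.74e-07).

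Most genes of cholesterol and fatty acid synthesis rose. Of 15 tested members 10 were higher at E9.0, none was lower and 5 were not called (median 0.86), beside 18.7% higher over all features, and 6 rose at least 2-fold. Under median scaling 8 were higher (median 0.61). Fdps, the farnesyl diphosphate synthase, had 11.10, 11.86, 11.47 and 11.08 at E9.0, against 9.73, 10.06, 10.42 and 9.79 at E8.5. All E9.0 arrays were higher, with replicate 2 the highest, and E8.5 replicate 3 was the highest of its group. The rise was 2.60-fold (1.38 ± 0.19, adjusted p = 0.000316). Cyp51, the sterol demethylase, had 8.77, 9.33, 8.59 and 8.58 at E9.0, against 7.13, 7.44, 7.89 and 7.26 at E8.5, also 1.38 ± 0.19 (adjusted p = 0.000306). Lss, which closes the sterol rings, rose by 1.14, Nsdhl by 1.14, Msmo1 by 1.03 and Hmgcs1, an early enzyme of the pathway, by 0.91 (adjusted p from 0.000423 to 0.00198).

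The promoters of 2 of these genes are shown in the same way, with TCACNCCAC, a form of the sterol regulatory element, and CCAAT, the NF-Y box, in capitals on either strand. Hmgcs1 lies at chr13:119690151-119690350 on the plus strand and Cyp51 at chr5:4104698-4104897 on the minus strand (RefSeq, GRCm38.p6).
Hmgcs1: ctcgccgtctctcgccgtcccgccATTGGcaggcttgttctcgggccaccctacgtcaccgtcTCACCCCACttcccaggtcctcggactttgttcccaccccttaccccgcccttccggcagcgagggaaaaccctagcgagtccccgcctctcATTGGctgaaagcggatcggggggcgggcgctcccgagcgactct
Cyp51: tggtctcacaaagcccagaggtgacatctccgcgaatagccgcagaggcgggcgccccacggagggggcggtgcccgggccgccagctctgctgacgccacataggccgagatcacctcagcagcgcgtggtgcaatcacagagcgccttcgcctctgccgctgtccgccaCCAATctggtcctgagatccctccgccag
Of 15 tested members 11 had a promoter in the table and 10 of them held CCAAT, a short motif that 37.5% of all genes hold. TCACNCCAC was found only in Hmgcs1 among the 11, against 1.22% of all genes.

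Metabolic and cell cycle genes were called in both directions, as were all features (18.7% higher and 21.8% lower). Of 23 genes of hypoxia and glycolysis 5 were higher and 8 lower. Slc2a1, the glucose transporter GLUT1, had 11.74, 11.59, 11.82 and 11.55 at E9.0, against 12.82, 12.67, 12.48 and 12.99 at E8.5, and fell by 1.06 (adjusted p = 8.59e-05), and Aldoc fell by 1.11, P4ha2 by 0.99 and hexokinase 2 (Hk2) by 0.46. Of 70 respiratory chain genes 6 were higher and 15 lower, with changes between -0.97 and 0.66. The lower count was 9 without E9.0 replicate 1 or E8.5 replicate 2 or 4, and the higher count 2 without E9.0 replicate 3 and 3 without E8.5 replicate 2 or 4. Of 49 ribosomal protein genes 2 were higher and 12 lower, between -0.51 and 0.52, with 7 lower without E9.0 replicate 3, and no higher one without E9.0 replicate 2 or E8.5 replicate 3. The lower shares of these 2 lists are near the 21.8% of all features. Their higher counts, 6 of 70 and 2 of 49, lie below the 18.7% of all features. Of 21 genes of DNA replication and mitosis 5 were higher and 6 lower: the licensing genes Cdc6 (-0.69, but 0.16 with adjusted p = 0.298 by a dimmer probe) and Cdt1 (-0.65) fell, and Mcm7 (0.96), a helicase subunit, rose.

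Srf itself was not called between the stages in controls. It had 8.498, 8.37, 8.51 and 8.63 at E9.0, against 8.35, 8.59, 8.59 and 8.47 at E8.5 (change 0.00, adjusted p = 0.987), although a dimmer probe gave 0.45 (adjusted p = 0.0119). Of 17 actin cytoskeleton genes that are SRF targets 5 were higher and 4 lower, beside 18.7% and 21.8% over all features. The higher count was 3 without E9.0 replicate 1, 3 or 4 or E8.5 replicate 2 or 4, and 2 under median scaling. Tpm1, a tropomyosin, had 12.03, 11.75, 11.43 and 11.71 at E9.0, against 10.76, 10.36, 10.67 and 10.54 at E8.5, and rose by 1.15 ± 0.13 (adjusted p = 9.52e-05). Actc1, the cardiac actin, rose by 1.04 with signal on 1 of 4 E8.5 arrays, while the smooth muscle actin Actg2 fell by 0.82 and Fhl1 by 0.51. Probes disagreed for Actb: the 3 bright ones gave 0.40, 0.30 (adjusted p = 0.161) and 0.86 (adjusted p = 6.36e-05), and 2 probes near the floor gave -1.28 and -1.22. For Tpm2 the probes gave -0.58 and 0.69, so its direction rests on the probe. Without Actb and Tpm2, 4 of 15 members were higher and 3 lower.

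Several of the largest rises belonged to no list. Besides Mfap4, these were Cited4, a transcriptional coregulator, which followed the erythroid pattern (8.44, 8.66, 10.08 and 10.05 at E9.0, against 5.36, 5.15, 7.72 and 5.77 at E8.5, with E8.5 replicate 3 the highest of its group). Its change was 3.31, and 3.88 without that array. Zmiz1, which encodes a partner of PIAS-family proteins, had 8.55, 9.21, 8.63 and 8.86 at E9.0, against 6.55, 6.28, 6.32 and 6.45 at E8.5 (2.41 ± 0.14, adjusted p = 1.54e-06). Ddx6, an RNA helicase of P-bodies, had 9.12, 9.23, 8.997 and 9.06 at E9.0, against 6.80, 6.60, 7.01 and 6.76 at E8.5 (2.31 ± 0.10, adjusted p = 2.08e-07). Neither of these 2 overlapped between stages, but dimmer probes gave 0.44 to 1.01 for Ddx6 and 0.35 for Zmiz1, so the sizes depend on the probe.

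The same stages in Srf knockouts gave a separate set of 8 arrays. Srf averaged 7.61 in E9.0 knockouts and 7.35 in E8.5 knockouts, against 8.37 in the controls of either stage, in a normalization of all 16 arrays, so its signal was lower in the arrays labelled knockout. In the knockouts alone 3120 of 9862 features (31.6%) were called between E9.0 and E8.5. Of 9606 features tested in both genotypes 1993 were called in the same direction in both, which is 64.5% of the knockout calls and 50.8% of the control calls, and 19 were called in opposite directions. Of 394 features called with at least 2-fold change in controls, 334 (84.8%) were called in the same direction in knockouts.

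The difference of the change between genotypes was tested directly over the 16 arrays, and 188 of 10679 features (1.76%) were called, 128 with a more positive change in knockouts. That count rests on single arrays: it was 403 without control E8.5 replicate 1, and 75, 122 and 81 without control E8.5 replicates 2, 3 and 4. It was 95 and 75 without control E9.0 replicates 3 and 4, 97 without knockout E8.5 replicate 1, and 121, 123 and 90 without knockout E9.0 replicates 2, 3 and 4.

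Most of the leading stage changes did not differ between genotypes at the threshold. Hoxc10 rose by 5.29 in knockouts and by 5.57 in controls in this fit (difference -0.27, 95% interval -1.18 to 0.63). Cdx1 changed by -3.83 in knockouts and -3.40 in controls (interval of the difference -1.61 to 0.75), and yolk sac endoderm genes had a median of -2.58 in knockouts and -2.53 in controls. Hoxd13 differed: it rose by 1.14 in knockouts and by 2.55 in controls (difference -1.41 ± 0.23, adjusted p = 0.00632), the only called member of the posterior Hox list.

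The erythroid list had a median change of 0.30 in knockouts, against 2.31 in controls, and the difference was called for 2 of 18 members, both with a smaller change in knockouts, beside 1.76% of all features. These were Kel (0.05 in knockouts and 2.43 in controls, difference -2.38 ± 0.57, adjusted p = 0.0407) and Car2, a carbonic anhydrase. For Alas2 the difference was -3.06, which did not pass (adjusted p = 0.101). Genes of hypoxia and glycolysis had a median of 0.57 in knockouts, against -0.16 in controls, with 8 of 24 called more positive, among them Aldoc (2.05 ± 0.37, adjusted p = 0.0111) and P4ha2 (0.91 ± 0.14). The cholesterol list had a median of 1.60 in knockouts, against 0.82 in controls, with 4 of 16 called more positive.

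**Figure D5:**
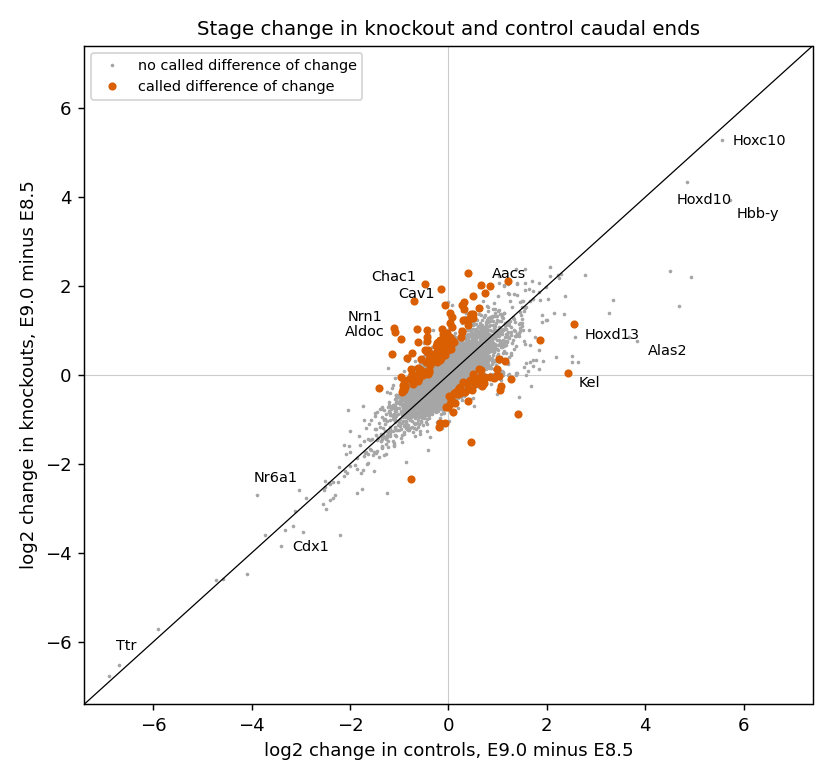
Log2 change between E9.0 and E8.5 in knockouts (vertical axis) against the change in controls (horizontal axis), for 10679 features fitted over 16 arrays; orange points have a called difference of change and the line marks equal change. Hoxc10, Cdx1 and Ttr lie near the line, Kel (0.05 in knockouts, 2.43 in controls) lies below it, and Chac1 and Nrn1 lie above it.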

How the data were processed

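Total RNA of dissected caudal ends was labelled as biotinylated cRNA and hybridised to Illumina bead arrays, per the labels' protocols. The authors deposited intensities per probe that were not normalized, with a detection p-value per probe and array, per the file headers. GenomeStudio is named in the submitters' processing notes, and no source used here states its version or the genome build of the probes. The deposited value table ranks probes as the intensities do and was used only as an alternative. Here the 8 arrays were background-corrected with normexp against negative controls inferred from the detection p-values, with an offset of 16, then quantile-normalized and put on a log2 scale (neqc of limma 3.58.1, R 4.3.3). Probes detected at p under 0.05 on at least 4 of the 8 arrays were kept (13447 of 25697), and the probe with the highest mean stood for each symbol, which left 9954 features, 9172 with a symbol. Of the probes 23978 had 1 symbol and 1719 none.

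Stages were compared with lmFit and eBayes, without a replicate block, and p-values were adjusted by Benjamini-Hochberg over all features. Knockouts were fitted in the same way, and the difference of change was tested over 16 arrays normalized together. A fold given as "at least" is used where no array of the other group detected the probe. Each array of that group was then set at the lowest signal of any probe it detected. The measured signal was kept where it was higher. The number of arrays limits the precision. In simulated data of 9954 genes 200 were changed, with independent noise on each array. There the fit recovered 60%, 82%, 98% and 98% of changes of 0.5, 1, 1.5 and 2 on the log2 scale. Of its calls 6.63% were false. In the real arrays 4030 features were called, far more than 200, so these rates need not hold for the control comparison. Replicate numbers did not pair the arrays across stages. Genes were named by a written rule: the 15 largest separated rises and falls, the called members of each list (at most 6 in longer lists), Srf, up to 10 genes that differed between genotypes, and defining markers. Hoxa13, Hoxc13, Lrp2, Smo, Car2, the members named as below the filter and other probes of named genes were added after their values were seen. The comparison, the gene lists and the 2-fold count were chosen with earlier results of these data known.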

Additional observations from a re-analysis of the deposited data

Results flagged for a closer look

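Among 512 sets of 4 arrays checked, 26 held an array with a gap to the nearest other array that exceeded Dixon's 95% critical value, and chance alone marks about 1 in 20. All values are log2 intensities. E9.0 replicate 1 was high for Actb (13.97), Apcdd1 (8.40), Tgfbr1 (10.51) and the mean of the neural crest list (6.67). It was low for Spp2 (4.22), the intermediate mesoderm list (4.98) and the cytosolic ribosomal protein list (12.43). E9.0 replicate 2 was low for Emcn (8.32) and high for Hey2 (7.64), and E9.0 replicate 3 was high for Dbp (7.46) and low for Fbn2 (4.88). E8.5 replicate 1 was high for Mmp2 (10.44), Stra6 (7.78) and Tmem255a (4.45), and low for Mcl1 (10.30) and Tpm2 (7.05). E8.5 replicate 2 was high for Wnt3a (10.84) and low for Hoxd3 (7.06) and Lum (4.96). E8.5 replicate 3 was high for the erythroid genes Blvrb (8.76) and Kel (5.87), and for Aacs (8.15) and Tfap2a (7.27). The same array was low for Fgf15 (6.81) and Tnnc1 (6.63), and E8.5 replicate 4 was low for Dcn (4.63).

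For 16 named genes the change between E9.0 and E8.5 differed between genotypes by the test of the difference itself, given here as knockout minus control. It was more positive in knockouts for Chac1 (2.50), Nrn1 (2.16), Aldoc (2.05), Chst1 (1.76), Cav1 (1.64), Dbp (1.46), Aacs (1.35) and Renbp (1.24). The same held for Egln3 (1.19), Tmem255a (1.17), Hes5 (1.11), P4ha2 (0.91) and Macrod1 (0.82). It was more negative in knockouts for Kel (-2.38), Hoxd13 (-1.41) and Actc1 (-0.99).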

How the results depend on the processing

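Between E9.0 and E8.5 controls 4030 features were called, and the count stayed within 1.5 times of this under every alternative run: 2911 with all 24 arrays, 3803 with 16, 3941 from the deposited table, 3285 under median scaling, 3773 without a filter, and 3293 to 4071 without 1 array. With the replicate number as a block, 3675 features were called in controls, 2810 in knockouts (3120 without it) and 173 for the difference of change (188 without it). Replicate numbers gave correlations of -0.03, 0.009, 0.23 and -0.02, and 2 of 8 arrays matched best with their own number. The knockout count was 2190 to 3281 without 1 array. The count for the difference of change was 75 to 403 without 1 array, and the cause was not tested. Of 218 named genes under these settings, 4 reversed: Actb (-0.19), Tpm2 (0.0508) and Tbx6 (0.41) with the mean of probes, and Aen (-0.0845) in the fit of 24 arrays. The probes of the first 3 disagree, and for Aen the cause was not tested. Of 208 called named genes 148 kept their call under every setting. The medians of 34 of 40 lists kept their sign under median scaling, the exceptions being the Wnt, matrix, hedgehog, p53, amino acid and imprinted lists. Probes near background limit the size of falls and rises.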

Other observations

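Of 13 imprinted growth regulators tested 5 were higher and 3 lower at E9.0, beside 18.7% and 21.8% over all features. Without E9.0 replicate 2 or E8.5 replicate 2, 3 were higher. Peg3 rose by 0.96, Gnas by 0.68 and Nnat by 0.67, and Slc38a4, an amino acid transporter, fell by 0.53. Phlda2, a growth-restricting gene of the placenta and yolk sac, fell by 2.50, beside yolk sac endoderm levels of 4.69 to 4.83 at E9.0 and 7.04 to 8.46 at E8.5, whose part in this was not tested. The median of the list was 0.05 and changed sign with the scaling.

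Of 10 immediate early genes 4 were higher and 1 lower, beside 18.7% and 21.8% over all features. Junb rose by 0.69, Jun by 0.67, Ccn2 by 0.56 and Ccn1 by 0.51, while the apoptosis inhibitor Mcl1 fell by 0.61. Ccn1 had a dimmer probe at -0.24 (adjusted p = 0.127 by limma). Of 11 circadian clock genes 5 were lower, beside 21.8% of all features, and 3 without E9.0 replicate 2 or with the mean of probes. Leaving out arrays in turn, 8 fits in all, ended the call of Arntl 4 times and that of Per1 5 times. The larger falls were Nr1d2 at -0.71 and Clock at -0.49, though a dimmer probe of Clock gave 0.31 (adjusted p = 0.0551).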
